A study of Drosophila melanogaster with 16 samples.

Results

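Transcripts of cell junction and cell adhesion proteins were followed across 3 genotypes of Drosophila melanogaster testis. The genes chosen by symbol were shg, CadN, arm, alpha-Cat, dlg1, Nrt, Nrg and cora, 8 in all. Of these, 7 were found under exactly that symbol in the platform's annotation, on 9 of the 13966 probe sets of the array, and arm (armadillo, the fly beta-catenin) was not analysed here. Nrt and dlg1 had 2 probe sets each and the other 5 genes had 1. The choice of genes did not use measured values, but it was made with earlier results of these data known.

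The samples were whole testes of adult flies of unstated age. There were 5 arrays of wild-type testes, 5 of bgcn- testes (written bgcn below) and 6 of Os+bgcn- testes (written Os+bgcn), all labelled as biological replicates. Both mutant groups are labelled as mutant for bgcn, a gene that germ cells need in order to stop dividing and become spermatocytes, and they differ by Os. Os is an older name of upd1, the secreted ligand of the JAK-STAT pathway made by hub cells, and the labels do not say by which driver or allele it was supplied. A bgcn sample pooled 750 testes, whereas 150 were pooled for wild type and for Os+bgcn, so that genotype and pool size cannot be told apart in bgcn. The protocol text of the wild-type samples names bgcn testes, but spermatid transcripts were present on those arrays, with a summed signal of 163049 to 191242 over 15 genes against 449 to 1342 on the bgcn arrays. The bgcn transcript itself did not separate the groups. It read 61.3 to 141.5 on wild-type arrays, 47.6 to 102.2 on bgcn arrays and 42.0 to 130.1 on Os+bgcn arrays, and the labels do not say whether the allele alters the transcript that this probe set detects. upd1 read 254.7 to 636.7 in Os+bgcn, 3.8 to 15.3 in bgcn and 5.1 to 18.5 in wild type.

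In the fly testis a compact group of somatic cells, the hub, anchors germline stem cells and cyst stem cells through adherens junctions. The classical cadherins DE-cadherin (encoded by shg) and DN-cadherin (encoded by CadN) span the membrane in these junctions, Armadillo binds their tails, and alpha-catenin (alpha-Cat) links the complex to actin. Dlg1 is a scaffold of lateral membranes and septate junctions, Neuroglian (Nrg) and Coracle (cora) belong to the septate junction, and Neurotactin (Nrt) is a transmembrane adhesion protein studied mainly in the nervous system. RNA of whole testes does not place a transcript in the hub, and in these bulk samples fewer cells of a type and less RNA per cell cannot be told apart.

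The unit of every level below is the deposited signal of a probe set, a brightness on a linear scale that cannot be compared between probe sets. Changes are differences of log2(signal + 18.8) with their standard error, fitted with limma to all 16 arrays, and p-values are adjusted over the 10422 tested probe sets by the Benjamini-Hochberg method, with a threshold of 0.05. Testing required a signal above 42.9 on 5 or more arrays. That held for 8 of the 9 junction and adhesion probe sets, and dlg1 151772_at was left out. dlg1 144871_at and Nrt 142670_at passed this filter on the Os+bgcn arrays alone, so that a difference of these probe sets from the other groups was built into their selection.

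**Figure D1:**
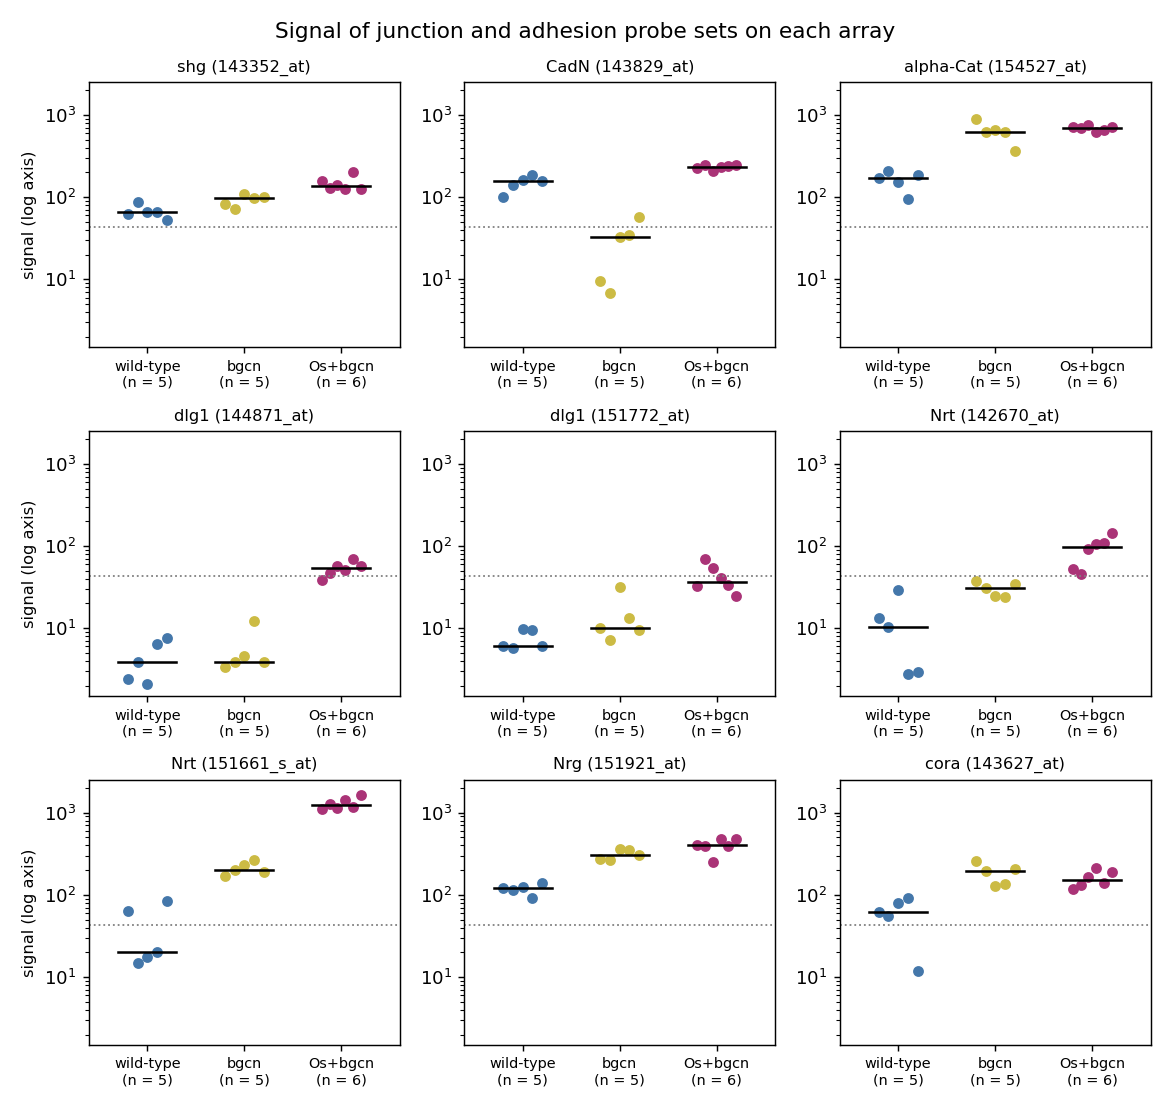
Signal of each of the 9 probe sets (log axis) on every array, by genotype, with 5 wild-type, 5 bgcn and 6 Os+bgcn arrays. Points are arrays, horizontal bars are group medians, and the dotted line is the filter level of 42.9. CadN is low in bgcn alone, Nrt and dlg1 are highest in Os+bgcn, and alpha-Cat, Nrg and cora are at similar levels in both mutants and lower in wild type.

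The neural-type cadherin gene CadN, on chromosome arm 2L, went down and then up. Its signal on wild-type arrays 1 to 5 was 99.6, 142.3, 159.8, 185.1 and 156.9. On bgcn arrays 1 to 5 it was 9.5, 6.8, 33.0, 34.5 and 57.8. In Os+bgcn it lay between 205.7 and 249.8 with a median of 235, and no 2 of the groups overlapped.

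CadN fell by 1.93 ± 0.25 in bgcn against wild type (limma adjusted p = 7.4e-07). It was the only tested probe set of the 8 that was lower in bgcn in this fit, whereas 4 more were lower with arrays centred on ribosomal protein genes, as given below. In Os+bgcn it stood 2.54 ± 0.24 above bgcn (adjusted p = 2.8e-07). It also lay 0.61 ± 0.24 above wild type (adjusted p = 0.027), a call that ended with quantile normalization (0.37, adjusted p = 0.17), with arrays centred on their medians (0.38, adjusted p = 0.16), with the smaller pseudocount of 1.88 (0.67, adjusted p = 0.12) and without wild-type array 1 (0.49, adjusted p = 0.085), and that turned direction with ribosomal centring. bgcn arrays 1 and 2, where CadN was lowest, also held the highest accessory gland marker sums of that group, 27529 and 21291 against 4942 to 13209 on the other bgcn arrays. In wild type it was the other way, as array 4 held the highest sum (32266) and the highest CadN signal (185.1). Wild-type array 1 held the lowest of both (8138 and 99.6). The part of accessory gland content in the CadN change was not tested. Without bgcn arrays 1 and 2 CadN differed by -1.47 from wild type (adjusted p = 1.6e-06) and by 2.08 between the mutants (adjusted p = 5.7e-07).

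The relative spread of CadN differed between the groups as well. Its coefficient of variation was 6.61% in Os+bgcn, 21.2% in wild type and 73.8% in bgcn, where 1 of 5 arrays exceeded the filter level. The SD of its signal was 15.4, 31.5 and 20.9 in the same order. The high percentage in bgcn thus goes with a low mean of 28.3 and not with a larger SD than in wild type. The size of its change between the mutants depends on the pseudocount, from 1.60 to 3.31 with a pseudocount of 75.2 or 1.88, while the direction and the call of that change were the same.

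shg, on arm 2R, encodes the epithelial-type cadherin that holds stem cells to the hub. It read 62.1, 87.5, 65.8, 66.0 and 52.7 on wild-type arrays 1 to 5. On bgcn arrays 1 to 5 it read 82.5, 71.9, 109.1, 98.6 and 100.3, and these values overlapped those of wild type. In Os+bgcn the lowest value was 126.5, the median 136 and the highest 200.0, all above every array of the other groups.

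Between the mutants shg rose by 0.58 ± 0.16 (limma adjusted p = 0.016), or 1.49-fold on this scale. This call was lost without bgcn array 2 (0.50, adjusted p = 0.050) and without bgcn arrays 1 and 2 (0.44, adjusted p = 0.11). Against wild type, shg was 0.95 ± 0.16 higher in Os+bgcn (adjusted p = 2.6e-05) and differed by 0.38 ± 0.17 in bgcn (adjusted p = 0.054). The bgcn difference lay close to the median of all tested probe sets in that comparison, 0.46, and passed upward in 8 of the alternatives, with values of 0.38 to 0.52, and turned to -1.69 (adjusted p = 1.6e-05) with ribosomal centring.

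Both cadherins were set against each other within each array, which compares how far they moved and not their amounts. The log2 value of CadN minus that of shg was 0.55 to 1.30 on wild-type arrays, -1.84 to -0.64 on bgcn arrays and 0.23 to 0.85 on Os+bgcn arrays. The bgcn arrays did not overlap with either other group, and the wild-type and Os+bgcn arrays did. A shift of all log2 values of an array, as in median or ribosomal centring, cancels in this difference. Quantile normalization, or a rescaling of the signals before the pseudocount is added, does not cancel.

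alpha-Cat, on arm 3L, encodes alpha-catenin. Wild-type arrays 1 to 5 read 173.6, 208.7, 154.7, 94.1 and 186.8. bgcn arrays 1 to 5 read 887.3, 628.5, 650.3, 616.9 and 364.7, and Os+bgcn arrays 622.5 to 760.2 with a median of 703. Every mutant array exceeded every wild-type array, while the mutants overlapped with each other.

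Over wild type, alpha-Cat rose by 1.82 ± 0.20 in the bgcn mutant (limma adjusted p = 7.0e-08) and by 2.01 ± 0.19 with Os added (adjusted p = 7.3e-09). Between the mutants it differed by 0.19, with a 95% interval of -0.20 to 0.58 (adjusted p = 0.53). Intervals here and below are not adjusted for the number of probe sets. Within arrays, shg minus alpha-Cat ranged from -1.52 to -0.41 on wild-type arrays, from -3.16 to -1.69 on bgcn arrays and from -2.33 to -1.64 on Os+bgcn arrays. The mutants overlapped with each other, and neither overlapped with wild type.

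Nrt, on arm 3L, rose in both steps, from wild type to bgcn and from bgcn to Os+bgcn. On 151661_s_at, whose suffix marks probes shared by several transcripts in the maker's naming, wild-type arrays 1 to 5 read 64.2, 15.0, 17.6, 20.4 and 83.6. The bgcn arrays 1 to 5 read 167.8, 199.0, 230.2, 262.3 and 192.0, and the Os+bgcn arrays 1109.5 to 1653.7 with a median of 1229.

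The groups formed 3 separate steps on this probe set, with no overlap. Nrt rose by 2.10 ± 0.25 from wild type to bgcn (limma adjusted p = 3.6e-07) and by 2.53 ± 0.24 from bgcn to Os+bgcn (adjusted p = 4.7e-07). The total step was 4.63 ± 0.24 (adjusted p = 9.5e-13). The first of these steps depends on the scaling described below.

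The other Nrt probe set, 142670_at, was dimmer and followed the same order of group means with smaller differences. It read 13.4, 10.3, 28.9, 2.8 and 2.9 on wild-type arrays 1 to 5 and 37.7, 30.9, 24.5, 23.7 and 34.3 on bgcn arrays 1 to 5. In Os+bgcn it ran from 46.2 to 143.7 with a median of 98.0, above every bgcn array. The change was 1.10 ± 0.25 between the mutants (limma adjusted p = 0.004) and 1.85 ± 0.25 in Os+bgcn against wild type (adjusted p = 1.7e-06). These p-values are not independent of the selection, as this probe set entered the test through the Os+bgcn arrays alone. In bgcn against wild type the change was 0.74 ± 0.26 (adjusted p = 0.017), with arrays that overlapped. That last call ended with arrays centred on their medians (0.52, adjusted p = 0.086), with the larger pseudocount (0.29, adjusted p = 0.079) and without bgcn arrays 1 and 2 (0.66, adjusted p = 0.073).

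dlg1, on the X chromosome, encodes the Discs large scaffold of lateral membranes. On 144871_at the wild-type arrays 1 to 5 read 2.4, 3.9, 2.1, 6.4 and 7.7, and the bgcn arrays 3.4, 3.9, 4.6, 12.4 and 3.9. The Os+bgcn arrays read 38.9 to 70.0 with a median of 53.7. All wild-type and bgcn arrays were near the bottom of the scale, and none of the Os+bgcn arrays overlapped with them.

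dlg1 rose by 1.56 ± 0.16 over bgcn (limma adjusted p = 1.1e-06) and by 1.63 ± 0.16 over wild type (adjusted p = 1.8e-08). It entered the test through the Os+bgcn arrays alone, so these p-values and calls are not independent of its selection. Between bgcn and wild type it differed by 0.06, with a 95% interval of -0.29 to 0.42 (adjusted p = 0.76). Because the lower groups are so dim, the size is set by the pseudocount, running from 0.67 to 2.97 between the mutants, with the call kept at both ends. The left-out probe set of dlg1, 151772_at, spanned 5.7 to 9.7 on wild-type arrays, 7.2 to 32.1 on bgcn arrays and 24.8 to 69.4 on Os+bgcn arrays. In a fit without the filter it differed by 0.88 ± 0.20 between the mutants (adjusted p = 0.0047), with arrays that overlapped.

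Nrg and cora, of the septate junction, passed the test in both mutants against wild type and not between the mutants, as did alpha-Cat. Nrg, an L1-type adhesion molecule on the X chromosome, spanned 90.5 to 140.1 on wild-type arrays, 263.4 to 360.0 on bgcn arrays and 250.9 to 477.6 on Os+bgcn arrays. It was 1.26 ± 0.16 higher in bgcn than in wild type (limma adjusted p = 8.1e-07) and 1.59 ± 0.16 higher in Os+bgcn (adjusted p = 1.3e-08). The mutants overlapped and differed by 0.33, with an interval of 0.01 to 0.66 (adjusted p = 0.15). Without Os+bgcn array 3, which read 250.9 where the others of its group began at 397.9, that difference was 0.45 and passed (adjusted p = 0.026).

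cora, on arm 2R, encodes a band 4.1 protein of the septate junction. Its signal spanned 11.8 to 90.7 on wild-type arrays, 127.4 to 258.3 on bgcn arrays and 116.9 to 211.4 on Os+bgcn arrays. Over wild type, cora rose by 1.44 ± 0.28 in the bgcn mutant (limma adjusted p = 1.4e-04) and by 1.27 ± 0.27 with Os added (adjusted p = 3.2e-04). Between the mutants it differed by -0.17, with an interval of -0.74 to 0.39 (adjusted p = 0.71).

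**Figure D2:**
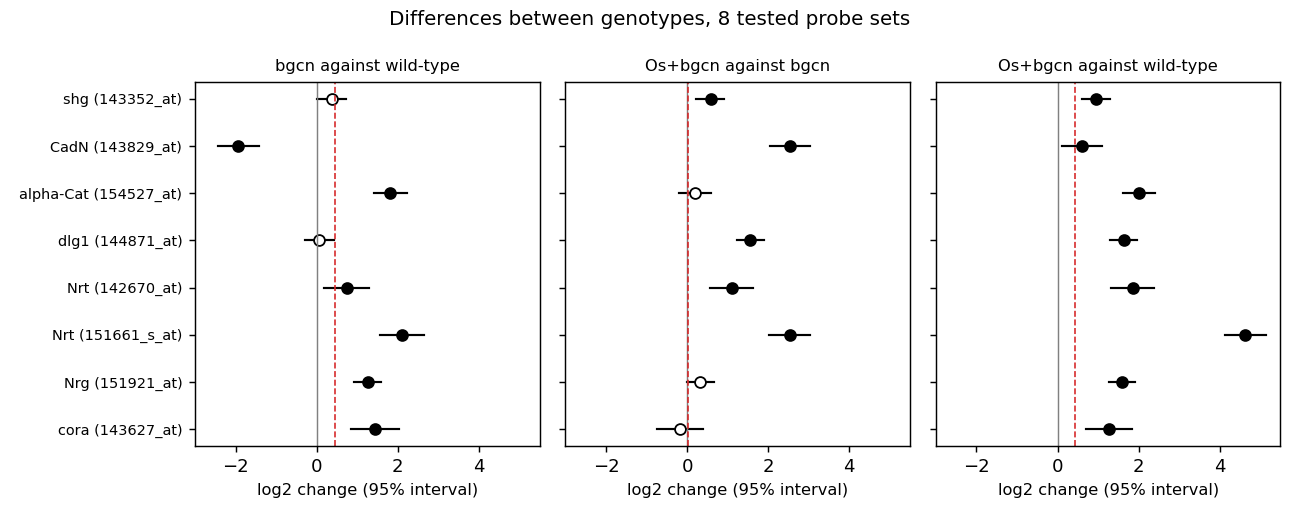
Log2 change of the 8 tested probe sets in each comparison, with 95% intervals from limma. Filled points passed at an adjusted p under 0.05, the grey line is 0 and the red dashed line is the median of all 10422 tested probe sets. CadN is the only point below 0 that passed, and CadN, dlg1 and both Nrt probe sets have the largest changes between the mutants. Of these, dlg1 and Nrt 142670_at passed the filter through the Os+bgcn arrays alone. With arrays centred on ribosomal protein genes the points of bgcn against wild type move left, and shg, alpha-Cat, dlg1, Nrg, cora and Nrt 142670_at then lie below 0.

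Counted over the tested probe sets, 5 of 8 were higher and none was lower in Os+bgcn than in bgcn by limma, where 20.5% of all tested probe sets changed, 11.6% upward. The same 5 probe sets, of shg, CadN, dlg1 and Nrt, were also those whose groups did not overlap, which held for 13.1% of all tested. In bgcn against wild type 5 were higher, 1 was lower and 2 did not pass, where 69.8% of all changed, 47.2% upward and 22.6% downward, and 5 of the 8 did not overlap, beside 54.5% of all tested. In Os+bgcn against wild type all 8 were higher and did not overlap, where 71.4% of all changed, 47.3% upward, and 58.0% did not overlap. The counts against wild type are thus to be read beside a background in which most probe sets differed. These comparisons share arrays, and 2 of the probe sets passed the filter through Os+bgcn alone.

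Most directions against wild type depended on the scaling. The median change of all tested probe sets was 0.46 in bgcn and 0.43 in Os+bgcn against wild type, and 0.03 between the mutants. Centring each array on the cytosolic ribosomal protein genes moved these medians to -1.61, -1.24 and 0.43, respectively. Of the 8 probe sets, CadN in bgcn and Nrt 151661_s_at in Os+bgcn kept their direction and call against wild type under every scaling tried. With ribosomal centring none of the 8 was higher and 5 were lower in bgcn against wild type, namely CadN, shg, dlg1 at -2.01 (adjusted p = 2.4e-06), Nrt 142670_at at -1.33 (adjusted p = 0.0014) and Nrg at -0.81 (adjusted p = 0.023). In Os+bgcn against wild type it left 1 higher and 1 lower, with CadN at -1.06 (adjusted p = 0.004), while Nrt 151661_s_at in bgcn came to 0.03 (adjusted p = 0.93). Between the mutants, shg, CadN, dlg1 and both Nrt probe sets passed under all 3 other scalings, with CadN at 2.49 to 2.93.

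The rest of the junction machinery was read from lists that leave out the genes above, and the counts stand beside shares of all tested probe sets. Between the mutants 11.6% of these were higher and 8.91% lower, in bgcn against wild type 47.2% and 22.6%, and in Os+bgcn against wild type 47.3% and 24.2%. Of 17 tested adherens junction and cortical partners 1 was higher, 1 was lower and 15 did not pass in Os+bgcn against bgcn, a share of calls not above that of all tested probe sets, with a median change of 0.30 beside 0.03 for all. cno, which encodes the actin-linking scaffold Canoe, went from 196.9 ± 30.0 (SD, n = 5) to 422.5 ± 57.2 (n = 6), a rise of 1.03 ± 0.14 (limma adjusted p = 3.5e-05). if, an integrin alpha subunit, fell by 0.86 ± 0.23 (adjusted p = 0.012). That call was lost without bgcn arrays 1 and 2 (-0.56, adjusted p = 0.13) and with ribosomal centring (-0.46, adjusted p = 0.39). With ribosomal centring 2 of the 17 were higher and none was lower. p120ctn, the other catenin that binds cadherin tails, differed by 0.19 ± 0.19 (adjusted p = 0.54), the same size as alpha-Cat.

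The same 17 genes against wild type gave 15 higher in bgcn and none lower, a count that turned to 2 higher and 7 lower with ribosomal centring. Among them ed, an immunoglobulin adhesion protein, rose by 3.46 ± 0.33 and Moe, which encodes the membrane-actin linker Moesin, by 3.20 ± 0.16. In Os+bgcn against wild type 15 were higher as well, or 4 higher and 4 lower with ribosomal centring, and cno had the largest change at 3.62 ± 0.14.

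Of 18 tested septate junction genes besides dlg1, Nrg and cora, 1 was higher, 5 were lower and 12 did not pass between the mutants, with a median of -0.33. nrv1, a beta subunit of the sodium pump, rose by 0.93 ± 0.15 (limma adjusted p = 1.2e-04). The genes that fell were nrv2, Gli, Lac, kune and Cont, by 0.93 ± 0.29, 0.87 ± 0.25, 0.81 ± 0.14, 0.66 ± 0.14 and 0.42 ± 0.13 in that order. Lac encodes Lachesin, kune a claudin, Cont Contactin and Gli Gliotactin of tricellular junctions, and all but nrv2 were named after their values were seen. nrv2 did not pass without bgcn array 1 (-0.58, adjusted p = 0.056), without bgcn array 2, or without Os+bgcn array 2 or 6, and with ribosomal centring none of the 18 was lower. The count of 5 lower genes was 3 without bgcn array 1 and 2 without bgcn arrays 1 and 2. Muscle sheath, hemocyte and accessory gland markers were also lower in Os+bgcn than in bgcn, as given below, and their part in the septate junction counts was not tested.

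Against wild type 16 of these 18 septate junction genes were higher in bgcn and none lower, or 0 higher and 3 lower with ribosomal centring. l(2)gl, the Lethal giant larvae polarity gene, rose by 2.50 ± 0.17 and Cont by 2.40 ± 0.14. In Os+bgcn 14 were higher and 1 was lower, or 1 higher and 5 lower with ribosomal centring.

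Cadherins other than shg and CadN did not show the pattern of CadN. Of 10 on the array 7 were tested, and in Os+bgcn against bgcn 1 of them, Cad87A, rose by 0.95 ± 0.24 to 104.8 ± 19.1 from 49.5 ± 25.4 (limma adjusted p = 0.0091), a call that ended without bgcn arrays 1 and 2 (0.57, adjusted p = 0.055). CadN2, the neighbouring paralog of CadN, read 116.8 ± 42.8 in wild type, 119.3 ± 63.3 in bgcn and 108.8 ± 26.5 in Os+bgcn, and differed by -0.04 ± 0.27 in bgcn against wild type and by -0.02 ± 0.26 between the mutants. In this fit none of the 7 was lower in bgcn than in wild type and 3 were higher, among them kug, a Fat-like cadherin, by 2.45 ± 0.19, whereas with ribosomal centring 4 were lower and none was higher.

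Of 10 tested adhesion receptors besides Nrt, 1 rose between the mutants and none fell, a share close to that of all tested probe sets. It was Fas1, a fasciclin-domain protein, at 1.28 ± 0.16 (limma adjusted p = 1.4e-05), from 637.4 ± 129.5 to 1576.7 ± 362.1. Ama, which encodes Amalgam, the secreted ligand of Neurotactin, differed by 0.74 ± 0.27 (adjusted p = 0.060). Against wild type Ama was higher in bgcn by 1.39 ± 0.28 and in Os+bgcn by 2.13 ± 0.27, and with ribosomal centring it came to -0.68 in bgcn and 0.46 in Os+bgcn, neither of which passed (adjusted p = 0.094 and 0.26). In each mutant 4 of the 10 were higher and 1 was lower than in wild type, and ribosomal centring made this 0 higher and 8 lower in bgcn and 1 higher and 6 lower in Os+bgcn.

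**Figure D3:**
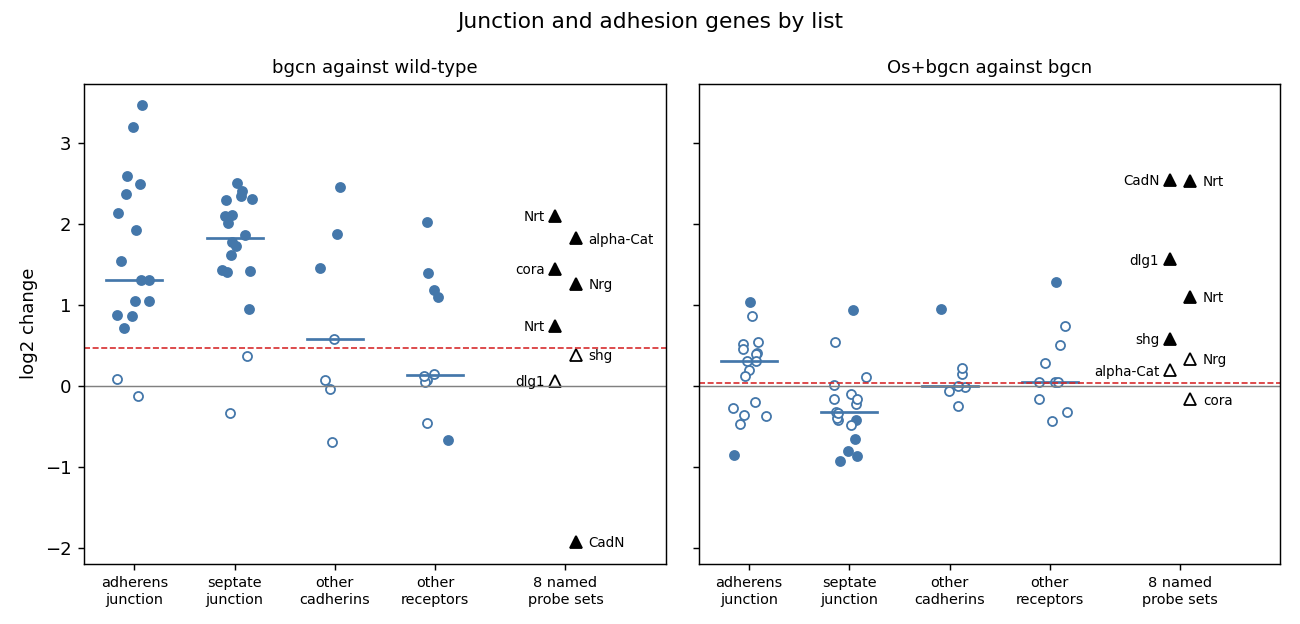
Log2 change of the listed junction and adhesion genes (circles, 17, 18, 7 and 10 genes from left to right) and of the 8 named probe sets (triangles), for bgcn against wild type and for Os+bgcn against bgcn. Filled symbols passed at an adjusted p under 0.05, short bars are list medians and the red dashed line is the median of all tested probe sets. Between the mutants CadN, Nrt 151661_s_at and dlg1 lie above every circle. dlg1 passed the filter through the Os+bgcn arrays alone, and its place depends on the pseudocount (0.67 to 2.97). Against wild type CadN lies below every circle, although most symbols of that panel shift below 0 with ribosomal centring.

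The markers of other cells in the tissue were summed over each list and array. Counts of calls in these lists are to be read beside the shares of all tested probe sets given above. Neural and glial markers, measured because CadN, Nrt and Nrg are abundant in nerves, summed over 12 genes to 542 to 763 on wild-type arrays, 660 to 898 on bgcn arrays and 608 to 762 on Os+bgcn arrays. These ranges overlapped, and brp, para and fne were not above the filter level on any array of any group. Of 8 neural and glial genes tested 1 was lower between the mutants, the synaptic vesicle gene nSyb at -0.95 ± 0.21 (limma adjusted p = 0.0028), and none was higher. Against wild type 1 was higher in bgcn, moody at 1.12 ± 0.18. The 2 lower ones were nSyb at -0.59 ± 0.22 and VGlut at -0.81 ± 0.28, the direction of CadN. Of all tested probe sets 47.2% were higher and 22.6% lower there. Between the mutants, where CadN rose, nSyb fell and VGlut differed by 0.21 ± 0.27 (limma adjusted p = 0.64). In Os+bgcn against wild type 3 were higher (elav, repo and moody) and 1 was lower (nSyb), beside 47.3% and 24.2% of all. The sum thus pools genes that moved in different directions, and the part of nerve content in the changes of CadN, Nrt and Nrg was not tested.

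Cyst lineage markers summed to 580 to 667, 1414 to 1848 and 5896 to 8001 in wild type, bgcn and Os+bgcn over 12 genes that include Nrt, and 9 of 11 tested were higher and 1 lower in Os+bgcn against bgcn. Without Nrt the sums were 524 to 646, 1184 to 1681 and 4724 to 6347 in the same order, with 8 of 10 tested higher and 1 lower. The gene that fell was eya, from 215.1 ± 44.9 to 99.8 ± 25.7. Among those that rose, tj passed the filter through the Os+bgcn arrays alone, and the list was chosen with earlier results known. These counts are thus not independent of the selection. Bright genes weigh most in such a sum, with piwi at 1366.5, ImpL2 at 1204.7 and magu at 849.6 in Os+bgcn (means). Early germline markers summed to 460 to 514, 3417 to 5127 and 7129 to 9356 over 9 genes, with 6 of 9 higher between the mutants. Hub markers summed to 244 to 437, 324 to 490 and 1502 to 1869 over 6 genes, but these include CadN, dlg1 and upd1, which is Os itself. Without those 3 genes the sums were 125 to 256, 294 to 467 and 876 to 1162, of which esg, a transcription factor gene, was higher between the mutants and hh and Gli were lower. The part of hub, cyst lineage and early germline content in the changes of CadN, Nrt and dlg1 was not tested.

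Markers of surrounding tissue moved the other way between the mutants. Muscle sheath markers summed to 2958 to 3391, 4505 to 6867 and 2745 to 4458 in wild type, bgcn and Os+bgcn over 12 genes, and hemocyte markers to 939 to 1163, 3470 to 5293 and 2418 to 3042 over 12 genes. With Os added 7 of 12 tested muscle sheath genes and 7 of 10 tested hemocyte genes fell and none rose, where 8.91% of all tested probe sets were lower. Act87E, the brightest gene of the muscle sheath sum, did not pass (-0.28 ± 0.19, limma adjusted p = 0.35). Accessory gland markers summed to 8138 to 32266, 4942 to 27529 and 570 to 3929 over 16 genes, all of which fell with Os added. Of 15 tested spermatid genes 1 was higher and none lower between the mutants, and all 15 were lower in each mutant than in wild type.

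**Figure D4:**
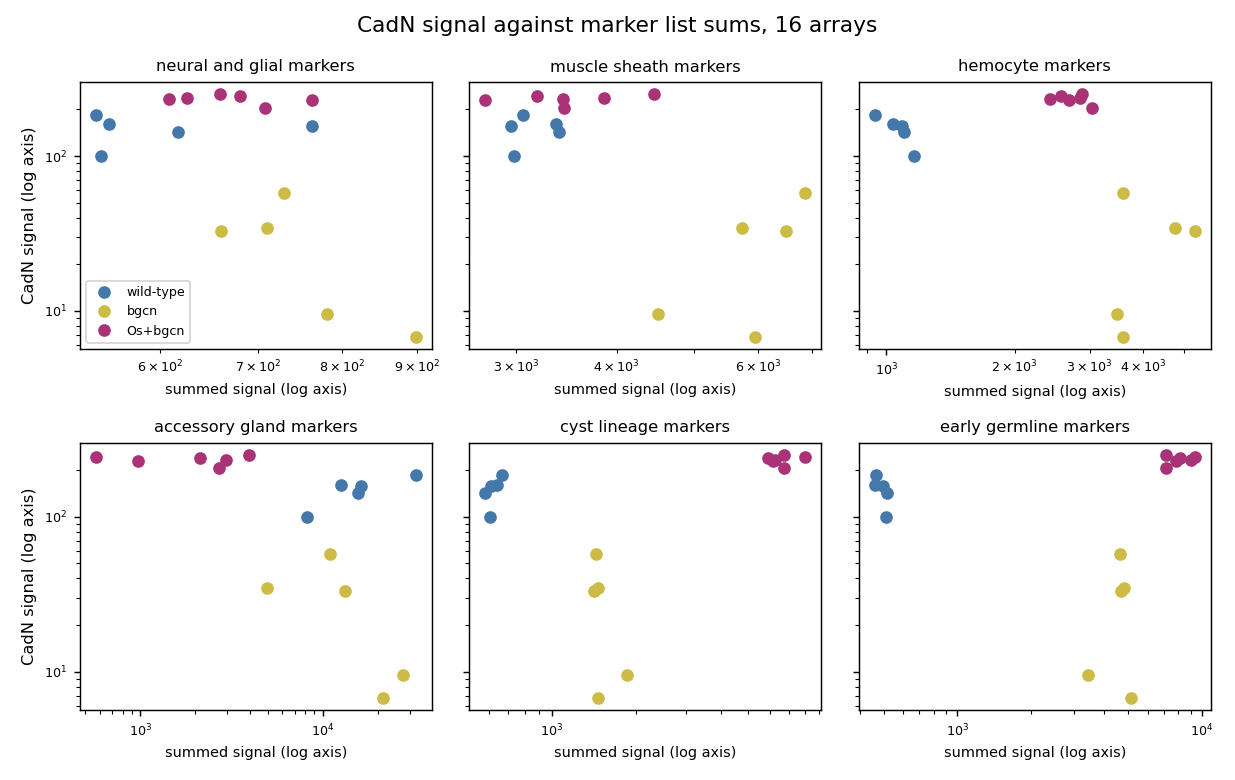
CadN signal against the summed signal of 6 marker lists on each of the 16 arrays (both axes log), coloured by genotype. The bgcn arrays lie lowest on every panel. On the neural and glial panel the genotypes overlap along the horizontal axis, but that sum pools genes that moved in different directions. The part of nerve content in the CadN change was not tested.

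Probe sets with the most similar course over the 16 arrays were found for each gene by the root-mean-square difference of log2 values, each centred on its own mean. The nearest genes to CadN were BigH1 (0.47), NT5E-2 (0.49) and side-V (0.54), all at a distance under the 1.14 by which CadN varied around its own mean. dlg1 144871_at had the rank of 94 in this order for CadN at 0.87, and shg stood at 1.05. In the order for dlg1 144871_at, CadN had the rank of 4466 of 10421 at the same distance. That distance is larger than the 0.79 by which dlg1 varied around its own mean. The nearest to Nrt 151661_s_at were piwi (0.48), isoQC (0.50) and Cbs (0.62), against its own spread of 1.96.

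For alpha-Cat the nearest of all named genes was p120ctn at 0.20, followed by Ypel (0.23) and inc (0.24), against a spread of 0.94. p120ctn read 128.2 ± 20.0 in wild type, 567.1 ± 225.7 in bgcn and 614.7 ± 71.5 in Os+bgcn. dlg1 144871_at lay nearest to smash (0.23), Cks30A (0.26) and FANCI (0.26), and shg to Cdk12 (0.20), Ipo9 (0.21) and TBPH (0.22). Nrg lay nearest to Smr (0.19), mRpL36 (0.20) and Klc (0.20), and cora to Dolk (0.27), Atf6 (0.31) and Crag (0.33). The spreads of dlg1, shg, Nrg and cora around their own means were 0.79, 0.44, 0.72 and 0.77, so for shg the distance is a larger share of its whole variation.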

How the data were processed

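RNA of whole testes (about 5 µg per sample) was measured on 16 one-colour arrays. The values the authors deposited are linear signal intensities, 1 per probe set, from MAS5 per the submitters' processing notes; its version and scaling target are not given in the sources used here. Array medians ran from 56.2 to 74.5; the number of arrays limits the precision, and detection calls were not used here. No batch labels were available for these arrays.

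Genes come from the platform's annotation, where 12443 probe sets carry 1 symbol, 327 several and 1196 none. List genes were updated through 12394 matched gene identifiers in RefSeq. The change of each list gene was read on its brightest tested probe set. Marker sums used the brightest probe set of each gene, tested or not, which for dlg1 was 151772_at. Groups follow the sample titles. Log2(signal + 18.8), the pooled 25th percentile, was fitted with limma 3.58.1 in R 4.3.3, with 1 coefficient per group and an intensity trend; a filter at 42.9, the 40th percentile over all values, kept 10422 probe sets. Errors with ± are SE for changes and SD for signals. The fit was tested on simulated data. Python 3.11.15 with pandas 2.3.3 wrote the tables, and matplotlib 3.10.9 drew the figures.

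The genes and lists were chosen with earlier results of these data known. Named were all 8 genes, upd1, and the 3 nearest probe sets per gene. From each adhesion list the 3 largest passing changes per comparison were to be named, but not all of these are given. Other genes named were chosen after their values were seen. Alternatives were 3 scalings, 2 pseudocounts, 2 filters, no trend, array weights, a replicate block, leaving out each array, and leaving out bgcn arrays 1 and 2 together. Same-numbered arrays of different groups did not deviate together, as 1 of 15 correlations of their deviations exceeded 0.1 (-0.107 to 0.201).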

Additional observations from a re-analysis of the deposited data

Results flagged for a closer look

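Within groups, 3 values stood apart from the rest of their group by Dixon's criterion, among 27 combinations of a probe set and a group, where chance gives about 1 in 20. dlg1 144871_at read 12.4 on bgcn array 4, where the other bgcn arrays read 3.4 to 4.6, and dlg1 151772_at read 32.1 on bgcn array 3. Nrg read 250.9 on Os+bgcn array 3, against 397.9 to 477.6 on the other arrays of that group.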

How the results depend on the processing

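Of 642 values of the 24 changes under up to 27 alternatives, 605 kept their direction and side of the threshold, 12 lost the call, 9 gained it and 16 changed direction; the causes were not tested. With ribosomal centring, bgcn against wild type turned to -1.69 for shg, -0.25 for alpha-Cat, -2.01 for dlg1, -1.33 for Nrt 142670_at, -0.81 for Nrg and -0.63 for cora, and Os+bgcn against wild type to -0.72 for shg, -1.06 for CadN, -0.05 for dlg1, -0.08 for Nrg and -0.40 for cora, leaving 2 of 8 probe sets called there. Among list genes it turned Cals (-0.20), Cad87A (-0.62), Fas1 (-0.05) and Ama (-0.68) in bgcn and Cals (-0.05) in Os+bgcn. dlg1 in bgcn also turned to -0.16 with median centring and -0.03 without bgcn array 4, within a range of -0.03 to 0.11 over single arrays left out. Between the mutants cora turned to 0.22 with ribosomal centring, 0.02 with array weights and 0.03 without bgcn arrays 1 and 2. The stricter filter left 3 of the 5 calls between the mutants, because it removes dlg1 and Nrt 142670_at from the test. With the replicate block 5, 6 and 8 probe sets passed between the mutants, in bgcn and in Os+bgcn against wild type, as without it, and 1749, 7251 and 7308 of all tested against 2141, 7277 and 7446. Ribosomal centring made 85.1%, 2.93% and 10.4% of calls upward, against 56.6%, 67.6% and 66.1%. Leaving out 1 array gave 4 to 6, 6 to 7 and 7 to 8 calls among the 8. Signals near the bottom of the scale limit the size of the CadN, dlg1 and Nrt changes.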
